A study of Mus musculus with 7 samples.

Results

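The genes described here encode the laminin chains, nidogens and heparan sulfate proteoglycans that make up much of the basement membrane apart from type IV collagen. They are 10 of the 53465 genes in the table of estimated counts, found by matching gene identifiers to the symbols Lama2, Lama4, Lama5, Lamb1, Lamb2, Lamc1, Nid1, Nid2, Hspg2 and Agrn. All 10 were found and all 10 were among the 15645 genes that passed the filter on low counts in the 6 primary tumors. The rule is a list of symbols with no threshold on the data, but the list was chosen with earlier results of these data known.

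The mouse mammary carcinoma line EMT6 was implanted orthotopically in the mammary fat pad of female Balb/c mice aged 6 to 8 weeks. RNA was sequenced from 3 EMT6-P tumors (parental, EMT6 in the labels, given an isotype control antibody) and 3 EMT6-PTR tumors (the αPD-L1 treatment-resistant variant, EMT6 PDR in the labels, given anti-PD-L1). A single metastasis of the EMT6 PDR variant under anti-PD-L1 was also sequenced. All 7 samples carry the same dose label of 250 μg per mouse every 3 days, with treatment starting on day 1 and lasting until the institutional endpoint. Cell variant and antibody changed together between the groups and cannot be told apart. The variant was selected from tumors that grew back under treatment. The labels do not state which tumor came from which mouse, so p-values measure the spread between these samples only.

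Basement membranes are thin sheets of matrix under epithelia and around vessels, muscle fibers, fat cells and nerves. Each laminin is a trimer of an α, a β and a γ chain, and laminin trimers bind cell surface receptors and polymerize into a network. Nidogens and the proteoglycans perlecan and agrin connect that network to type IV collagen, and the heparan sulfate chains of perlecan and agrin hold growth factors. In a tumor, such chains can be made by the carcinoma cells, by vessels and by stromal cells. Bulk libraries mix these sources, so fewer cells of a type and less RNA per cell cannot be told apart.

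In the GENCODE annotation of build GRCm38, the α chain genes were at chr10:26980036-27619758 (Lama2, minus strand), chr10:38965515-39110188 (Lama4, plus) and chr2:180176373-180225859 (Lama5, minus). The β chain genes were at chr12:31265234-31329644 (Lamb1, plus) and chr9:108479736-108490530 (Lamb2, plus), and the γ chain gene Lamc1 at chr1:153218922-153332786 (minus). The nidogen genes were at chr13:13437551-13512269 (Nid1, plus) and chr14:19751265-19811787 (Nid2, plus). Perlecan (Hspg2) was at chr4:137468769-137570630 (plus) and Agrn at chr4:156165290-156197488 (minus). Exons of Nid2 shared 437 of 5174 bases (8.45%) with those of Rtraf on the opposite strand, a gene of up to 176.2 CPM (library-scaled counts), so Nid2 values are uncertain if reads were counted without strand.

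RefSeq promoter windows of 250 bases before to 50 bases after the transcription start (GRCm38.p6) were available for 7 of the 10 genes, namely Lama2, Lama5, Lamb1, Lamb2, Nid1, Hspg2 and Agrn. Of these, 4 are printed because the values described below turn on them: Lama5, whose groups did not overlap, and Lamb1, Lamb2 and Nid1, whose levels set 1 tumor apart. They lie at chr2:180225810-180226109 (Lama5, minus strand), chr12:31265043-31265342 (Lamb1, plus), chr9:108479612-108479911 (Lamb2, plus) and chr13:13437352-13437651 (Nid1, plus). Capitals mark matches, on either strand, to the GC box (GGGCGG) and the CCAAT box.
Lama5: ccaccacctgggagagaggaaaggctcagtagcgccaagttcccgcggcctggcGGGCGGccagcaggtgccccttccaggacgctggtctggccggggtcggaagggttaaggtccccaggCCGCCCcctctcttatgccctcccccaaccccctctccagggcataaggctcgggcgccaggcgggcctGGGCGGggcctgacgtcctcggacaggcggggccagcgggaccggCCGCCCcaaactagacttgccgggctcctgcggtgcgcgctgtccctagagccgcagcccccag
Lamb1: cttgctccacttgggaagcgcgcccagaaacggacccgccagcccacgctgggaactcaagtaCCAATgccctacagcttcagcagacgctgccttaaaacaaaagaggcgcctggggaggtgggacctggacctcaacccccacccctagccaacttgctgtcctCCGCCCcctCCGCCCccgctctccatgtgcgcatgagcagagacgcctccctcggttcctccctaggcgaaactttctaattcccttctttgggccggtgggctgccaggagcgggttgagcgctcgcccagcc
Lamb2: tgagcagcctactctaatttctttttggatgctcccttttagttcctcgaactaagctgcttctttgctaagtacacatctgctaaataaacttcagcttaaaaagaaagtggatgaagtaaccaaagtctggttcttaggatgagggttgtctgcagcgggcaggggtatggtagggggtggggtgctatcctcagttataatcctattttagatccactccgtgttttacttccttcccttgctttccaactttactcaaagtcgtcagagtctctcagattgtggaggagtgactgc
Nid1: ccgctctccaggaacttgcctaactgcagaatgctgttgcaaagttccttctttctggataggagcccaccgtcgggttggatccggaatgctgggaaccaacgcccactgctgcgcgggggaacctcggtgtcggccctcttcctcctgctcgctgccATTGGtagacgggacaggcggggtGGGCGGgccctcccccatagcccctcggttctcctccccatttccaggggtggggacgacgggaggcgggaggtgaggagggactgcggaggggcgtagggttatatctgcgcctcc
The window of Lama5 held 4 GC boxes and no CCAAT box. That of Lamb1 held 2 GC boxes and 1 CCAAT box, and that of Nid1 held 1 of each. The window of Lamb2 held neither motif and had a GC content of 44%, against 63.7% in Lamb1, 64.7% in Nid1 and 72.7% in Lama5. Across 32851 windows of that length the median GC content was 52.7%, with a GC box in 35.7% and a CCAAT box in 37.4%. None of the 4 windows held the letters TATAAA, which 13.6% of all windows held, or the AP-1 site TGACTCA, in either orientation, which 5.2% held. Motif matches describe the sequence only.

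Total estimated counts were between 20430110 and 25213472 per library, and each of the 10 genes had at least 57 counts in every library. EMT6-PTR replicate 3 stood apart from the other tumors: correlations of its log2 CPM across genes with theirs were 0.872 to 0.912, against 0.931 to 0.985 among the other 5. Its summed fibroblast markers were 21478 CPM, against 5815 to 9513 CPM in the other tumors, with 7 of 9 above all EMT6-P tumors. Col3a1 was at 9088 CPM and Dcn at 3345 CPM in that sum. Col1a1 lay within the EMT6-P range, and Thy1 was below it, at 6.68 CPM against 63.2 to 114.0 CPM. Its summed pericyte and smooth muscle markers were 166.9 CPM, against 780.4 to 1325 CPM, with 9 of 10 below all EMT6-P tumors. Acta2 made up most of that sum in EMT6-P (508.0 to 683.5 CPM) and was at 54.2 CPM in this tumor. Des held 406.8 CPM of the highest sum, that of EMT6-PTR replicate 1. Notch3 went the other way, at 38.4 CPM in EMT6-PTR replicate 3 against 9.02 to 11.4 CPM in EMT6-P. The summed epithelial markers of replicate 3 were 615.6 CPM, against 2387 to 2733 CPM, with 4 of 8 below all EMT6-P tumors. Most of the sum was Krt8, Krt18 and Krt14, while Epcam, Krt5, Krt19 and Cldn4 lay within the EMT6-P range. Its summed leukocyte markers were 401.3 CPM, the lowest of the tumors, against 563.2 to 741.1 CPM, with 5 of 8 below all EMT6-P tumors. In EMT6-PTR replicate 3, 39.8% of all genes tested lay above and 42.7% below all EMT6-P tumors. The epithelial count of 4 of 8 was near that share. The metastasis, labelled as breast tumor tissue with no site given, held the lung genes Sftpc at 2348 CPM, Scgb1a1 at 3007 CPM and Sftpb at 1160 CPM, each of which was at most 1.07 CPM in any tumor. Its summed endothelial markers were 1233 CPM, against 168.0 to 222.4 CPM in the tumors, with 9 of 10 above all EMT6-PTR tumors. Emcn went the other way, at 8.51 CPM against 15.7 to 22 CPM in the tumors. Of all genes, 54.8% lay outside the range of the EMT6-PTR tumors in the metastasis, in either direction.

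No basement membrane gene passed the test between EMT6-PTR and EMT6-P tumors. Lama5 and Lama4 were the only members whose 3 EMT6-PTR values all lay above the 3 EMT6-P values. That is 2 of 10 members, against 9.52% of all genes. Among the tumors, Lamb1, Lamb2 and Nid1 lay farthest from the EMT6-P mean on the log2 scale in EMT6-PTR replicate 3. So did Lama4, at 63.7 CPM, and Hspg2, at 516.2 CPM. With p-values from edgeR's quasi-likelihood test, adjusted over all genes by Benjamini-Hochberg, 0 of 10 members and 0 of 15645 genes (0%) had an adjusted p under 0.05, and the smallest adjusted p of any gene was 0.421. At an unadjusted p under 0.05 there were 0 of 10 members, where 11.4% of all genes were counted. DESeq2 called 281 genes (1.8%) and 0 members, with a lowest member adjusted p of 0.202 and 3 members at an unadjusted p under 0.05. The share of all genes at that unadjusted DESeq2 threshold was not counted, so these 3 have no background to be set against. The log2 fold change was above 0 for 9 of the 10 genes, with a median of 0.26, against 52.3% of all genes above 0 and a median of 0.025.

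Levels are given below as CPM, each gene's share of the library's estimated counts on an upper-quartile scale, with each library's value in the order of replicates 1, 2 and 3. The plot of members by library shows these values for all 10 genes.

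**Figure D1:**
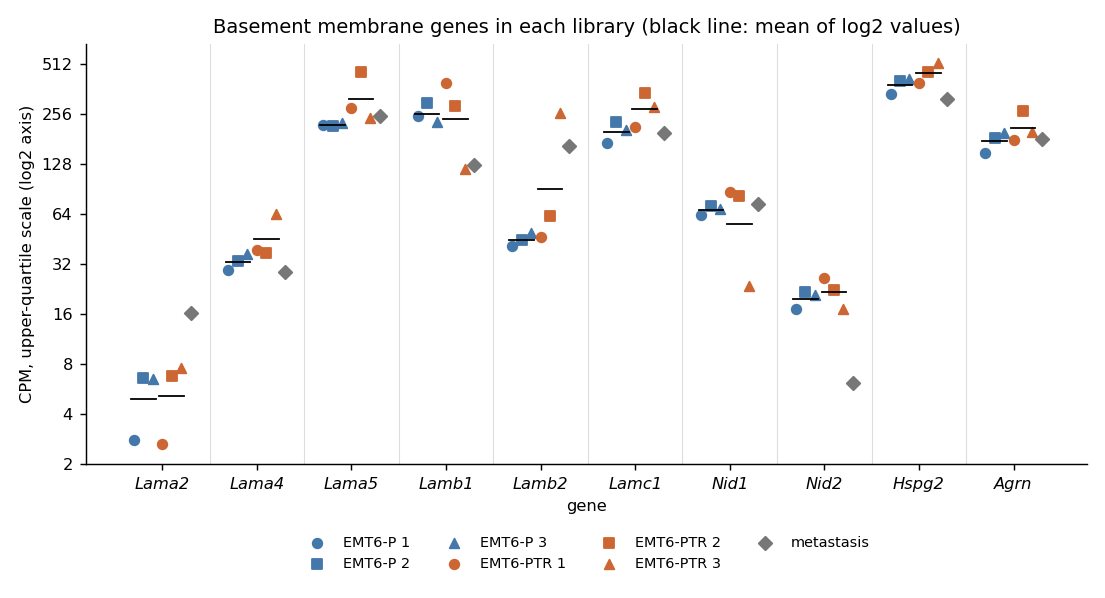
CPM on a log2 axis of each of the 10 basement membrane genes in each library. Blue points are EMT6-P tumors, orange points EMT6-PTR tumors (circle, square and triangle for replicates 1, 2 and 3), the grey diamond is the metastasis, and black lines are group means of log2 values. The orange triangle lies far below the other tumors for Lamb1 (119.6) and Nid1 (23.5) and far above them for Lamb2 (257.1).

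Lama5 encodes the α5 chain of laminins found widely in epithelial and vessel basement membranes. It was at 219.5, 217.1 and 223.6 CPM in the EMT6-P tumors, at 276.4, 454.1 and 242.8 CPM in the EMT6-PTR tumors and at 246.8 CPM in the metastasis. All 3 EMT6-PTR tumors lay above a very narrow EMT6-P range, with replicate 2 highest by far. The log2 fold change was 0.56 ± 0.25 (SE, n = 3 per group, edgeR's quasi-likelihood test, adjusted p = 0.449), and 0.24 without EMT6-PTR replicate 2. Lama4 encodes the α4 chain, known from vessel walls and other mesenchymal basement membranes. It was at 29.4, 33.1 and 36.7 CPM in EMT6-P, at 38.7, 37.3 and 63.7 CPM in EMT6-PTR and at 28.7 CPM in the metastasis. The groups did not overlap, although EMT6-PTR replicates 1 and 2 exceeded the highest EMT6-P tumor only narrowly. Its log2 fold change was 0.49 ± 0.24 (edgeR's quasi-likelihood test, adjusted p = 0.468), and 0.20 without EMT6-PTR replicate 3.

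Lama2 encodes the α2 chain, the main laminin α chain of skeletal muscle fibers and peripheral nerve. It was at 2.78, 6.54 and 6.46 CPM in EMT6-P and at 2.62, 6.80 and 7.58 CPM in EMT6-PTR. The groups overlapped, and the lowest tumor of each was replicate 1. These tumors had the highest summed skeletal muscle markers of their group, 664.2 CPM in EMT6-P replicate 1 and 4324 CPM in EMT6-PTR replicate 1, against 3.67 to 383.9 CPM in the other tumors. What part muscle had in the Lama2 levels was not tested. Between the groups the log2 fold change was 0.11 ± 0.51 (edgeR's quasi-likelihood test, adjusted p = 0.943). Non-overlap with EMT6-PTR higher was thus seen for 2 of 10 members (9.52% of all genes), and non-overlap with EMT6-PTR lower for 0 of 10 (11.8% of all genes). Without EMT6-PTR replicate 3, Lama4, Lama5, Nid1 and Nid2 were above the EMT6-P range in both remaining tumors, 4 of 10 against 18.2% of all genes, and 0 of 10 had it below, against 21.8%.

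Lamb1 encodes the β1 chain, present in most laminins of developing and adult tissue. It was at 246.4, 297.5 and 229.1 CPM in EMT6-P, at 391.8, 286.0 and 119.6 CPM in EMT6-PTR and at 126.0 CPM in the metastasis. The highest and the lowest tumor were both EMT6-PTR, replicates 1 and 3, on either side of the EMT6-P range. The log2 fold change was 0.04 ± 0.41 (edgeR's quasi-likelihood test, adjusted p = 0.968). It was -0.35 without EMT6-PTR replicate 1 and 0.40 without replicate 3.

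Lamb2 encodes the β2 chain, known from the neuromuscular junction, the kidney glomerulus and vessel smooth muscle. It was at 40.9, 44.2 and 48.8 CPM in EMT6-P, at 46.1, 62.4 and 257.1 CPM in EMT6-PTR and at 164.5 CPM in the metastasis. EMT6-PTR replicate 1 lay within the EMT6-P range, replicate 2 a little above it, and replicate 3 far above every other tumor. The log2 fold change of 1.45 ± 0.64 (edgeR's quasi-likelihood test, adjusted p = 0.448) became 0.28 without EMT6-PTR replicate 3. Of the 10 members it had the largest fold change and the largest spread within EMT6-PTR, an SD of 1.32 on the log2 scale.

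Lamc1 encodes the γ1 chain, shared by most laminin trimers. It was at 171.3, 226.9 and 204.9 CPM in EMT6-P, at 214.1, 340.7 and 282.2 CPM in EMT6-PTR and at 197.1 CPM in the metastasis. Replicates 2 and 3 of EMT6-PTR were above every EMT6-P tumor, and replicate 1 lay within their range. This gave a log2 fold change of 0.47 ± 0.21 (edgeR's quasi-likelihood test, adjusted p = 0.451).

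Nid1 encodes nidogen-1, the linker that binds the laminin γ1 chain and type IV collagen. It was at 63.1, 71.5 and 68.5 CPM in EMT6-P, at 87.0, 82.2 and 23.5 CPM in EMT6-PTR and at 73.4 CPM in the metastasis. EMT6-PTR replicates 1 and 2 lay above all EMT6-P tumors and replicate 3 far below them. Over all 6 tumors the log2 fold change was -0.08 ± 0.45 (edgeR's quasi-likelihood test, adjusted p = 0.953), and 0.32 without EMT6-PTR replicate 3. Nid2 encodes nidogen-2, its close relative. It was at 17.1, 21.6 and 20.8 CPM in EMT6-P, at 26.3, 22.3 and 17.2 CPM in EMT6-PTR and at 6.11 CPM in the metastasis. The tumor groups overlapped, and the log2 fold change was 0.14 ± 0.20 (edgeR's quasi-likelihood test, adjusted p = 0.778).

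Hspg2 encodes perlecan, a large heparan sulfate proteoglycan. It was at 334.8, 402.9 and 411.9 CPM in EMT6-P, at 391.6, 453.2 and 516.2 CPM in EMT6-PTR and at 311.6 CPM in the metastasis. Replicates 2 and 3 of EMT6-PTR were above every EMT6-P tumor, and the log2 fold change was 0.24 ± 0.17 (edgeR's quasi-likelihood test, adjusted p = 0.571). Agrn encodes agrin, which clusters acetylcholine receptors at the neuromuscular junction and binds laminin and α-dystroglycan elsewhere. It was at 148.1, 182.2 and 196.8 CPM in EMT6-P, at 178.0, 264.0 and 198.8 CPM in EMT6-PTR and at 181.1 CPM in the metastasis. EMT6-PTR replicate 3 exceeded the highest EMT6-P tumor by a margin far smaller than the EMT6-P range, and only replicate 2 stood clear of it. For agrin the log2 fold change was 0.28 ± 0.20 (edgeR's quasi-likelihood test, adjusted p = 0.58). The proteoglycans had the narrowest spread within EMT6-PTR of the 10 genes, SDs of 0.20 for Hspg2 and 0.29 for Agrn on the log2 scale.

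**Figure D2:**
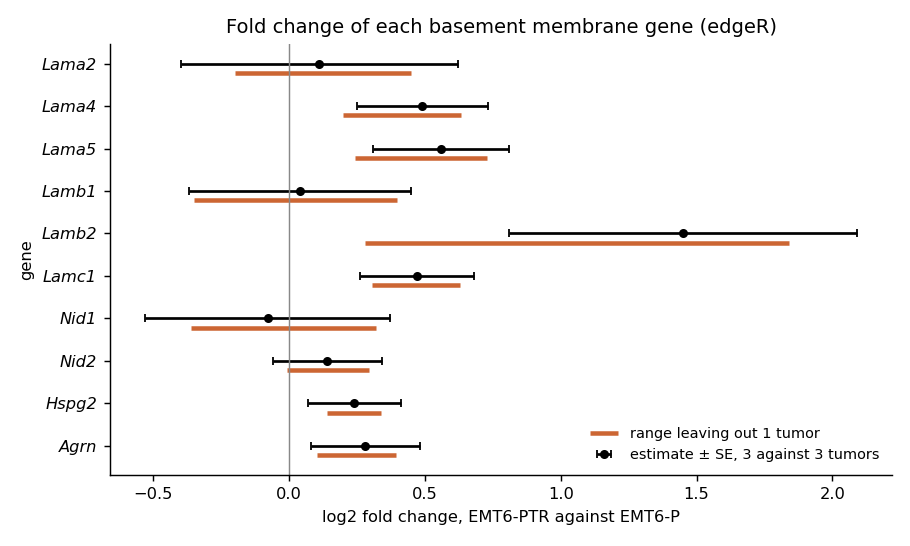
Log2 fold change of EMT6-PTR against EMT6-P for each gene, with black points and bars for the estimate ± SE from edgeR (3 tumors per group) and orange bars for the range of estimates when 1 tumor at a time is left out. The orange bar crosses 0 for Lama2, Lamb1, Nid1 and Nid2, and for Lamb2 it runs from 0.28 to 1.84.

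The spread of each gene was wider in EMT6-PTR than in EMT6-P for 10 of 10 members and for 83% of all genes. Over members the median SD of log2 CPM came to 0.17 among EMT6-P and 0.45 among EMT6-PTR tumors, against 0.15 and 0.39 over all genes. The 3 EMT6-PTR tumors differed in which members were outside the EMT6-P range. In EMT6-PTR replicate 1, 5 members were above the EMT6-P range (Lama4, Lama5, Lamb1, Nid1 and Nid2), against 32.6% of all genes, and Lama2 was below it, 1 of 10 against 32.5%. In replicate 2, 9 members did so, all except Lamb1, against 33.8% of all genes, and 0 of 10 were below, against 38.1%. In replicate 3, 7 members did so, against 39.8%, while Lamb1 and Nid1 were below all EMT6-P tumors, against 42.7%.

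Levels were compared between genes per kilobase of the exon union. In EMT6-P tumors the medians in CPM per kilobase were 28.2 for Hspg2, 24.8 for Lamb1, 24.8 for Lamc1, 19.6 for Agrn and 19.3 for Lama5, and the ranges of neighbours in that order overlapped. They were followed by Nid1 (9.86), Lamb2 (7.27), Nid2 (4.03), Lama4 (2.74) and Lama2 (0.396), with no overlap between neighbours from Lama5 downward. In EMT6-PTR tumors Lamc1 led with 34.1, followed by Hspg2 (31.7) and Lamb1 (28.8), whose ranges all overlapped. The annotated length matters here. Per kilobase of the longest transcript, an alternative that was added for levels and shares after seeing the data, the EMT6-P medians of Lamb1, Lama4 and Lama2 were 42.6, 5.47 and 0.672, Lamb1 led, and Lama4 ranked above Nid2. On that scale Lamb1 also led in EMT6-PTR, with a median of 49.4, followed by Lamc1 (37.0) and Hspg2 (31.9).

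Among the α chains, Lama5 made up 81.4% to 84.8% of the summed level per kilobase in EMT6-P tumors, 84.1%, 87.9% and 74.4% in EMT6-PTR tumors and 79.5% in the metastasis. The Lama4 share was 10.7% to 12.6% in EMT6-P and 11.1%, 6.82% and 18.4% in EMT6-PTR, so that its highest and lowest shares among the tumors both fell in EMT6-PTR. On the longest-transcript scale the Lama4 share was 19.2% to 22.1% in EMT6-P and 19.9%, 12.7% and 30.7% in EMT6-PTR. The EMT6-P tumors had ratios of Lama4 to Lama5 per kilobase of 0.126, 0.144 and 0.155, and the EMT6-PTR tumors 0.132, 0.0775 and 0.247. The mean log2 ratio differed by -0.05 between the groups (exact two-sided permutation test, n = 3 per group, p = 0.9, adjusted over 4 ratios 0.9), where 0.1 is the smallest p that 3 against 3 tumors allow. For Lama2 to Lama4, ratios were 0.0698, 0.146 and 0.13 in EMT6-P and 0.05, 0.134 and 0.0879 in EMT6-PTR (log2 difference -0.39, exact permutation p = 0.6, adjusted 0.8).

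Of the 4 ratios, that of the β chains varied most within EMT6-PTR. Lamb1 exceeded Lamb2 per kilobase by a ratio of 3.69, 4.13 and 2.88 in EMT6-P tumors and of 5.21 and 2.81 in EMT6-PTR replicates 1 and 2. In EMT6-PTR replicate 3 the ratio was 0.285 and in the metastasis 0.47, so Lamb2 exceeded Lamb1 in these libraries. On the longest-transcript scale the ratios were 4.46 to 8.27 in the other 5 tumors, 0.453 in EMT6-PTR replicate 3 and 0.745 in the metastasis. The groups differed by -1.13 in mean log2 ratio (exact permutation test, n = 3 per group, p = 0.6, adjusted 0.8), with SDs of 0.27 in EMT6-P and 2.21 in EMT6-PTR, and by 0.12 without EMT6-PTR replicate 3. Lamb2 made up 60.4% of the summed β chain level in EMT6-PTR replicate 3, 49.9% in the metastasis and 8.72% to 15.7% in the other tumors. The remaining β chain, Lamb3, made up 44.9% to 55.3% in EMT6-P tumors, 39.4%, 40.1% and 22.4% in EMT6-PTR tumors and 26.7% in the metastasis.

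EMT6-PTR replicate 3 differed likewise in its nidogens. Nid1 was 2.75, 2.47 and 2.45 times the level of Nid2 per kilobase in EMT6-P tumors, 2.47 and 2.74 times in EMT6-PTR replicates 1 and 2, 1.02 times in replicate 3 and 8.95 times in the metastasis. The groups differed by -0.42 in mean log2 ratio (exact permutation test, n = 3 per group, p = 0.6, adjusted 0.8), and by 0.03 without EMT6-PTR replicate 3. The 2 nidogens summed to 12.4 to 14.5 CPM per kilobase in EMT6-P, 17.6 and 16.2 in EMT6-PTR replicates 1 and 2 and 6.71 in replicate 3. In that tumor low Lamb1 and Nid1 and high Lamb2 coincided with the high fibroblast and the low pericyte, smooth muscle, epithelial and leukocyte marker sums given above. Its tendon and cartilage markers also summed to 1055 CPM, against 46.9 to 244.8 CPM in the other tumors. Of these markers 4 of 8 were above and 2 of 8 below all EMT6-P tumors, against 39.8% and 42.7% of all genes. Col11a1 (765.1 CPM) and Fmod (255.9 CPM) made up most of that sum, whereas the tendon marker Scx was at 11.4 CPM, against 26.1 to 51.5 CPM in the other tumors. Tnmd and Acan were at or near 0 in every tumor, at most 0.0975 and 0.0436 CPM. The part of these markers in the chain levels was not tested.

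**Figure D3:**
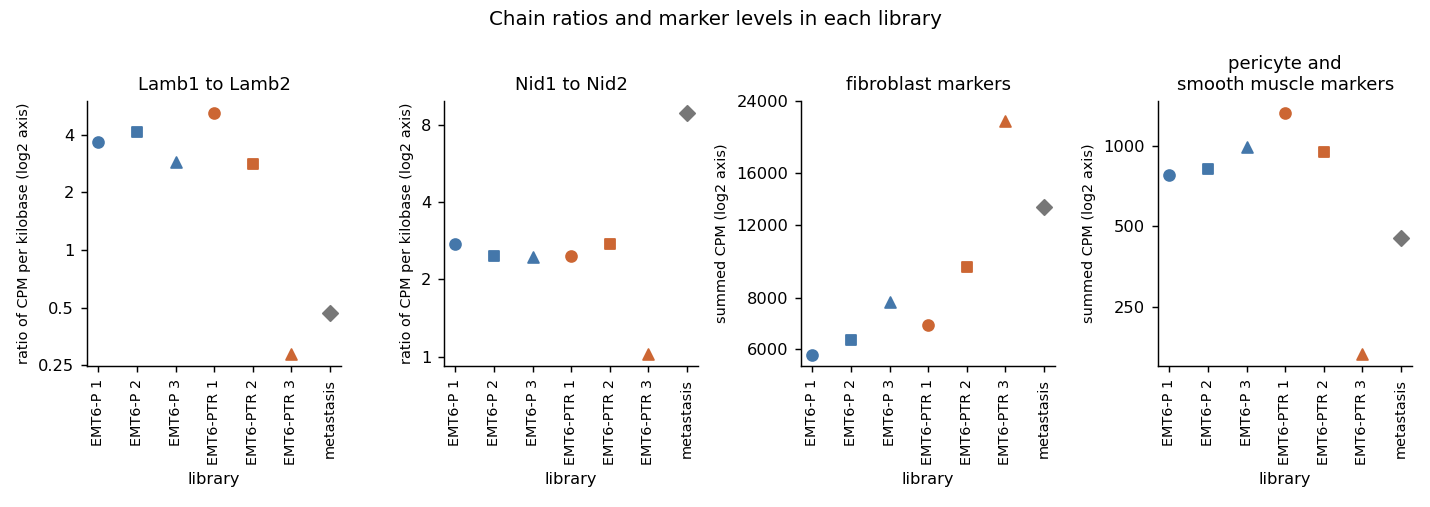
Ratio per kilobase of Lamb1 to Lamb2 and of Nid1 to Nid2, and summed CPM of 9 fibroblast markers and of 10 pericyte and smooth muscle markers, in each library on log2 axes (blue EMT6-P, orange EMT6-PTR, grey metastasis). EMT6-PTR replicate 3 (triangle) has the lowest value of the 7 libraries in both ratios (0.285 and 1.02) and in the pericyte and smooth muscle sum (166.9), and the highest in the fibroblast sum (21478).

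Of the summed level of perlecan and agrin per kilobase, Hspg2 made up 57.6% to 59.5% in EMT6-P, 58.8%, 52.7% and 62.8% in EMT6-PTR and 52.8% in the metastasis. Its highest and lowest shares among the tumors both fell in EMT6-PTR.

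**Figure D4:**
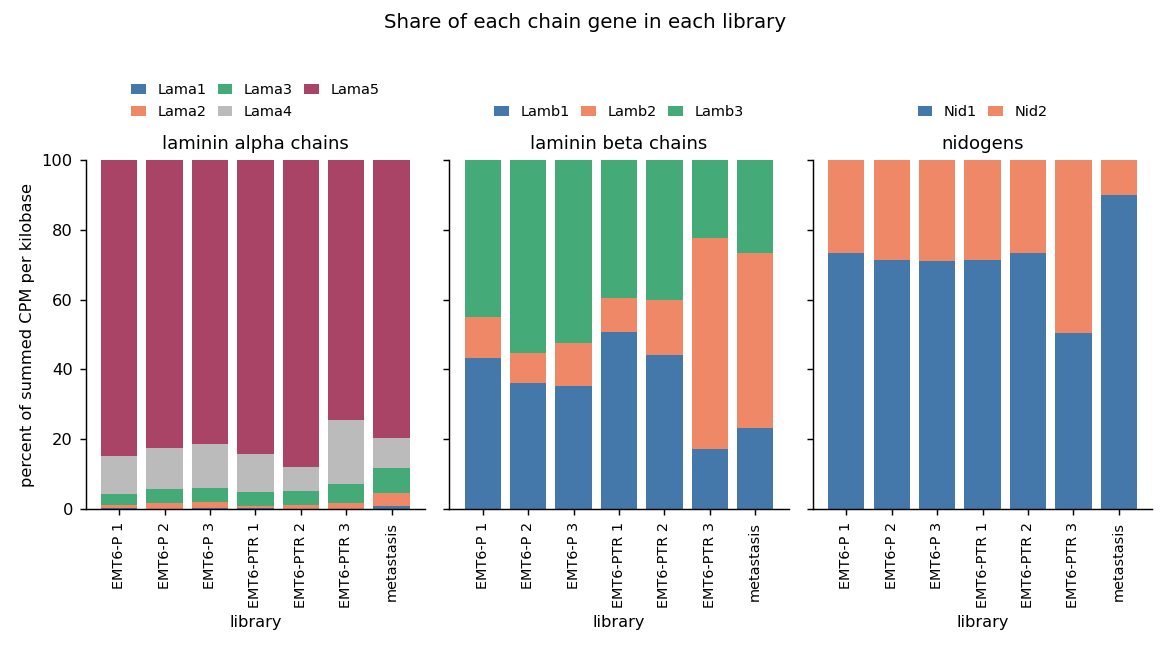
Share of each gene in the summed CPM per kilobase of the laminin α chains, the β chains and the nidogens, as stacked bars for each library. Lamb2 takes 60.4% of the β chains in EMT6-PTR replicate 3 and 49.9% in the metastasis.

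The metastasis is a single library, so its values have no replicate check and no test. Against the mean log2 level of the 3 EMT6-PTR tumors, Lama2 was the only member at least 2-fold higher, at 16.1 CPM against 2.62 to 7.58 CPM (log2 difference 1.63), where 12.4% of all genes were that much higher. Nid2 was the only member at least 2-fold lower, at 6.11 CPM against 17.2 to 26.3 CPM (log2 difference -1.81), where 8.58% of all genes were that much lower. Lama2 lay above the range of the EMT6-PTR tumors, and Lama4, Lamc1, Nid2 and Hspg2 lay below it, 5 of 10 members outside the range against 54.8% of all genes. Log2 differences were -0.65 for Lama4, -0.48 for Lamc1 and -0.53 for Hspg2. Lama5, Lamb1, Lamb2, Nid1 and Agrn lay within the range, which EMT6-PTR replicate 3 set at the end nearest to the metastasis for Lamb1, Lamb2 and Lama5. Without that tumor, Lamb1 was also at least 2-fold lower in the metastasis (-1.41) and Lamb2 at least 2-fold higher (1.61). The shares of all genes above were counted against the mean of all 3 EMT6-PTR tumors only. The lung and endothelial marker sums of this library are given above, and their part in its chain levels was not tested.

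The other genes of the basement membrane were taken from lists of the same matrix. Among 4 other laminin chains, 2 were above 0 and 2 below, with a median log2 fold change of 0.04 and 0 called. Lama3, the α3 chain, known from epithelial basement membranes, was at 7.90, 9.39 and 9.95 CPM in EMT6-P, 12.1, 19.8 and 17.0 CPM in EMT6-PTR and 21.3 CPM in the metastasis. All EMT6-PTR values were above all EMT6-P values, with a log2 fold change of 0.84 ± 0.24 (edgeR's quasi-likelihood test, adjusted p = 0.421). Lamb3, the β3 chain, was at 170.1, 304.5 and 225.2 CPM in EMT6-P, 202.8, 173.2 and 103.7 CPM in EMT6-PTR and 95.9 CPM in the metastasis. EMT6-PTR replicate 3 was the lowest tumor, the groups overlapped, and the log2 fold change was -0.54 ± 0.31 (edgeR's quasi-likelihood test, adjusted p = 0.516).

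Of 8 basement membrane collagens, namely the type IV chains that form the collagen network and the multiplexins Col15a1 and Col18a1, 5 could be tested, with 1 above 0 and 4 below, a median of -0.16 and 0 called. Col4a5 was at 6.09, 2.48 and 2.17 CPM in EMT6-P, 0.698, 1.11 and 0.156 CPM in EMT6-PTR and 47.3 CPM in the metastasis. All EMT6-PTR values were below all EMT6-P values (log2 fold change -2.46 ± 0.76, edgeR's quasi-likelihood test, adjusted p = 0.421). These tumor levels were low, and EMT6-P replicate 1 was well above replicates 2 and 3, so the size of that fold change is uncertain. Col18a1 was at 724.6, 976.0 and 885.8 CPM in EMT6-P, 910.9, 756.0 and 230.6 CPM in EMT6-PTR and 130.8 CPM in the metastasis. Only EMT6-PTR replicate 3 lay outside the EMT6-P range, below it, and the log2 fold change was -0.45 ± 0.47 (edgeR's quasi-likelihood test, adjusted p = 0.704).

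Among 13 tested receptors for laminin and agrin, 6 were above 0 and 7 below, with a median of -0.05 and 0 called. Dag1, which encodes dystroglycan, was at 80.3, 94.9 and 96.1 CPM in EMT6-P and 86.3, 145.6 and 232.2 CPM in EMT6-PTR (log2 fold change 0.77 ± 0.35, edgeR's quasi-likelihood test, adjusted p = 0.449). Itga7, a laminin-binding integrin chain of muscle, had 0.89 ± 0.36 (adjusted p = 0.433 by the same edgeR test). It was at 5.99, 4.63 and 4.15 CPM in EMT6-P and 13.8, 6.74 and 6.88 CPM in EMT6-PTR. Replicate 1 was the highest in each group and also had the highest summed skeletal muscle markers of its group. What part muscle had in the Itga7 levels was not tested. Of 13 tested other basement membrane proteins, 7 were above 0 and 6 below, with a median of 0.11 and 0 called. Their smallest p-values were those of Efemp2 (log2 fold change -0.39 ± 0.12) and Smoc2 (-0.84 ± 0.43), with edgeR adjusted p-values of 0.421 and 0.485.

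Of 10 genes for crosslinking and assembly, 5 were above 0 and 5 below, with a median of 0.03 and 0 called by edgeR. Lox, a lysyl oxidase that crosslinks collagen and elastin, was at 137.9, 144.1 and 141.8 CPM in EMT6-P and 218.1, 408.2 and 452.1 CPM in EMT6-PTR. All EMT6-PTR tumors lay above a narrow EMT6-P range, and the log2 fold change was 1.35 ± 0.28 (edgeR's quasi-likelihood test, adjusted p = 0.421). DESeq2 called Lox. Plod1, a lysyl hydroxylase, had 0.45 ± 0.26 (adjusted p = 0.516 by the same edgeR test). Of 14 tested proteases and inhibitors, 9 were above 0 and 5 below, with a median of 0.18 and 0 called. Adamts1 was at 38.8 to 43.4 CPM in EMT6-P and 52.1, 86.3 and 175.5 CPM in EMT6-PTR (log2 fold change 1.35 ± 0.42, edgeR adjusted p = 0.421). Timp3, a tissue inhibitor of metalloproteinases, had 0.78 ± 0.33 (edgeR adjusted p = 0.441). It was at 21.4 to 26.5 CPM in EMT6-P and 49.6, 55.6 and 22.8 CPM in EMT6-PTR, so the groups overlapped, and at 413.0 CPM in the metastasis.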

How the data were processed

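Stranded libraries of polyadenylated RNA were sequenced from 7 samples, of which 6 were primary tumors in groups of 3 and 1 a metastasis. The authors aligned reads to GRCm38 with STAR 2.6.0a and estimated counts per gene with RSEM 1.3.1, after FastQC 0.11.5, per the submitters' processing notes. The deposited values are these expected counts, not normalized and with no replicates pooled, and whether RSEM used strand is not given in the sources used here. Identifiers were matched to GENCODE M21 of the same assembly, from which positions, exon-union lengths and longest transcripts were taken.

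Rounded counts of the 6 tumors passed through filterByExpr, were given upper-quartile factors, and were fitted in R 4.3.3 by edgeR 4.0.16 (functions glmQLFit, glmQLFTest) with group as the only term and a threshold of 0.05 on Benjamini-Hochberg adjusted p-values over all genes tested. The SE is the log2 fold change divided by the square root of F. CPM are on 1 upper-quartile scale over 7 libraries. Log2 differences of the metastasis used a prior count of 2. Ratios of values per kilobase were compared by exact permutation tests over 20 assignments of 6 tumors.

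The 10 genes, the lists and the marker genes were chosen with earlier results of these data known. Named genes were the 10 members and, of each list of other basement membrane genes, up to 2 with the smallest p-values. Another gene of these lists was left out of their counts and is not reported here. Cell type lists are given by summed CPM. The remaining lists summed to 17.5 to 40.8 CPM (adipocyte), 10.2 to 23.2 (Schwann cell) and 401.3 to 741.1 (leukocyte) in the tumors, and to 43.5, 52.2 and 1104 in the metastasis. The 7 lung genes summed to 326.3 to 665.1 CPM in the tumors, mostly Cav1, and to 8661 in the metastasis. Alternatives were TMM scaling, DESeq2 1.42.0, limma-voom (limma 3.58.1), no filter, at least 10 counts in every tumor, the metastasis as an extra group, the replicate number as a block, each tumor left out in turn, total-count CPM, a prior count of 0.5 and the longest transcript as length. Python 3.11.15, pandas 2.3.3, scipy 1.17.1 and matplotlib 3.10.9 were used.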

Additional observations from a re-analysis of the deposited data

How the results depend on the processing

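With 3 tumors per group the SE of the members' log2 fold changes was 0.17 to 0.64, and the metastasis has no replicate. No alternative called a member. DESeq2 called 281 genes in all and 1 gene of the other basement membrane lists, where edgeR called 0 in both. The number of members at least 2-fold different in the metastasis was 2 to 4 when an EMT6-PTR tumor was left out, and was 4 without replicate 3. The share of all genes was not counted with a tumor left out, so these counts have no background to be set against. Of 130 alternative log2 fold changes of members, 120 kept their direction and 10 reversed. Leaving out 1 tumor gave -0.20 to 0.45 for Lama2, -0.35 to 0.40 for Lamb1, -0.36 to 0.32 for Nid1 and -0.0084 to 0.29 for Nid2. Lamb1 was also -0.10 with limma-voom. Of 32 alternative log2 ratio differences, 28 kept their direction and 4 reversed. The longest transcript as length and the replicate block cannot change such a difference, so their rows kept it by construction. All 4 reversals came from leaving out 1 tumor. Leaving out 1 tumor gave -0.48 to 0.36 for Lama4 to Lama5, -1.98 to 0.12 for Lamb1 to Lamb2 and -0.69 to 0.028 for Nid1 to Nid2. The cause of these reversals was not tested. Same-numbered tumors of the groups had correlations of 0.259, 0.253 and 0.0384 between their deviations, against -0.286 to 0.0979 for differently numbered tumors. Replicates 1 and 2 thus lay above that range and replicate 3 within it. These values do not settle whether the numbers mark pairs. The main fit took no pairs, and the number served as a block in an alternative only. With the replicate number as a block, 0 genes were called, and Lamb1 was -0.11.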
